A study of Mus musculus with 8 samples.

Results

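The comparison described here is that of whole fetal testes with whole fetal ovaries of the mouse at embryonic day 13. Its members are the 4 arrays of whole gonads among the 8 arrays of the study, 2 of XY testes and 2 of XX ovaries, chosen by their labels and by no measured value. Each gonad sample was RNA from 4 pooled gonads. The other 4 arrays hold EGFP-positive cells sorted from XX gonads (pre-granulosa cells) or XY gonads (Sertoli cells), again 2 of each. All 8 samples carry the strain label C57BL6/J-Tg92, so the whole gonads also come from the transgenic line, and no treatment is named. The promoter that drives EGFP is not given in the sources used here, nor whether the adjoining mesonephros was removed, nor whether the replicates came from separate litters. The p-values therefore measure the spread between these samples, which may be technical.

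A fetal gonad holds supporting cells, steroid-producing or stromal interstitial cells, germ cells, vessels and blood. In an XY gonad Sry turns supporting cells into Sertoli cells, which enclose germ cells in cords, secrete desert hedgehog and bring fetal Leydig cells into being. In an XX gonad Wnt4, Rspo1 and Foxl2 act in pre-granulosa cells. XX germ cells enter meiosis in response to retinoic acid, from which XY germ cells are shielded by the degrading enzyme Cyp26b1. A whole-organ RNA sample mixes all of these, and fewer cells of a type cannot be told apart from less RNA per cell.

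Transcripts were read on Affymetrix Mouse Genome arrays, and the deposited values are on a log2 scale. Of 45037 probe sets tested, 34945 carried a single gene symbol and gave 18193 genes, each represented by its brightest probe set. The arrays of one group differed less in the gonads than in sorted cells: the root mean square SD over the 45037 probe sets was 0.30 for ovaries and 0.20 for testes, against 0.53 for pre-granulosa and 0.43 for Sertoli cells. The 3′ minus 5′ reading of the actin control, which grows as RNA or labelled cDNA shortens, was 2.33 and 2.18 in the ovaries and 1.57 and 1.96 in the testes. For the Gapdh control it was 1.55 and 1.40 in the ovaries and 0.72 and 0.95 in the testes. Both controls were thus higher in both ovary arrays than in either testis array, and their part in the differences below was not tested.

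The sexes of the libraries matched their labels. Xist, the RNA that coats the inactive X chromosome, read 11.11 and 11.59 in the ovaries and 3.69 and 4.03 in the testes. The testes lay at the level of background, taken as 4.77, the highest value that any of 9 probe sets for Kdm5d, Uty and Eif2s3y, all on the Y chromosome, gave in ovaries. Xist was therefore at least 95.7-fold higher in the ovaries (difference -7.49 ± 0.23 (SE); limma, adjusted p = 0.000699). Eif2s3y, a translation factor gene of the Y chromosome, read 3.87 and 3.84 in the ovaries and 11.18 and 10.86 in the testes, at least 75.9-fold higher in the testes (adjusted p = 0.000699). Kdm5d, a Y-linked histone demethylase, read 3.81 and 3.26 against 10.02 and 9.75, at least 34.6-fold. Of 7 measured Y-linked genes, 2 were called at 1% and 3 at 5%, all higher in testes, with a median difference of 1.49. The Sry probe set carried no such signal: it read 7.49 and 7.57 in the ovaries, which have no Y chromosome, and 7.74 and 7.63 in the testes.

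X-linked genes as a whole lay close to autosomal ones in their median difference. The 617 measured had a median difference of -0.03, beside -0.04 for 17404 autosomal genes, and 45.4% lay above 0, beside 44.2%. At 1%, 4 X-linked genes were called, or 0.648%, beside 0.333% of autosomal genes. They were Xist, Egfl6 and Rhox6, higher in ovaries, and the kinase gene Pak3, higher in testes. At 5%, 4 X-linked genes were higher in testes and 8 in ovaries, beside 116 and 78 of the 17404 autosomal genes. Of the 11 measured genes of X inactivation or with a Y-linked copy, Xist alone was called, and Kdm5c, the X-linked counterpart of Kdm5d, differed by -0.33 ± 0.27 (SE).

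Between the organs 64 of 18193 genes were called at an adjusted p of 1%, or 0.352% of genes, with limma and Benjamini-Hochberg adjustment over all probe sets. Of these, 43 were higher in testes (0.236%) and 21 in ovaries (0.115%). At 5% the counts were 123 (0.676%) and 86 (0.473%), together 209 (1.15%). A fit on the 4 gonad arrays alone called 294 genes higher in testes (1.62%) and 247 higher in ovaries (1.36%) at 5%, in all 541 (2.97%). The calls needed both arrays of each organ: with any 1 gonad array left out, 0 genes were called at 1% in limma, with 1084 to 1478 genes at an unadjusted p under 0.05. With either Sertoli array left out, 20 were called. In 55.2% of all genes the 2 testis values did not overlap the 2 ovary values (testis higher in 24.4%, ovary higher in 30.7%), so a lack of overlap with 2 arrays a group says little by itself. The word called below refers to the 1% level unless 5% is given. The shares of all genes given here stand beside every list count below.

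**Figure D1:**
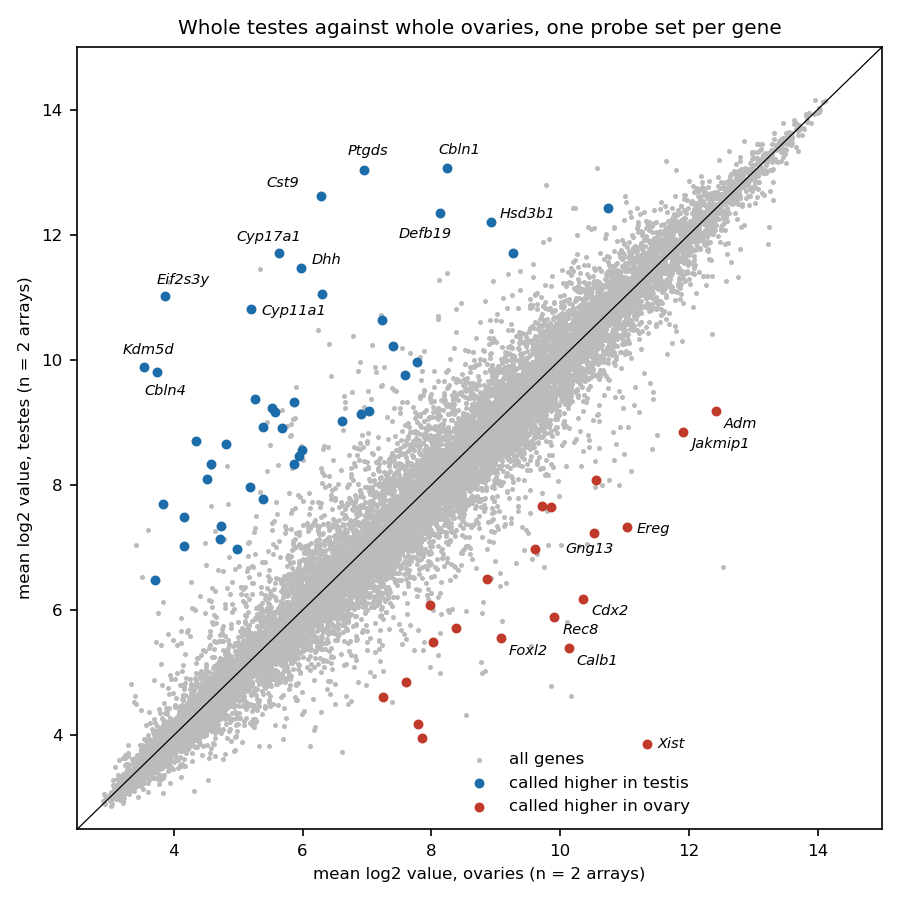
Mean log2 value of each of 18193 genes in ovaries (horizontal) and testes (vertical), with the 43 genes called higher in testes in blue, the 21 called higher in ovaries in red and the line of equality. Eif2s3y lies furthest above the line among the called genes, at a difference of 7.16, and Xist furthest below it, at -7.49.

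Several Sertoli cell genes were called higher in testes, and none higher in ovaries. Of 35 measured Sertoli genes, 9 were called higher in testes and 0 higher in ovaries, and at 5% 15 were higher in testes. Over all genes 0.236% were called higher in testes, and 0.676% at 5%. The median difference was 1.93, beside -0.04 for all genes. In the 4-array fit at 5%, 20 were higher in testes and 1, Cst12, higher in ovaries (difference -1.83). The groups did not overlap for 28 members with testis higher and for 3 with ovary higher, beside 24.4% and 30.7% of all genes.

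Dhh, the hedgehog ligand of Sertoli cells, read 5.82 and 6.13 in the ovaries and 11.49 and 11.45 in the testes, a 45.2-fold difference (5.50 ± 0.38 (SE); adjusted p = 0.00498). Its second probe set read 6.44 and 6.63 against 6.95 and 7.0, and missed 5% (difference 0.44; adjusted p = 0.536). Ptgds, which makes the prostaglandin D2 that helps recruit Sertoli cells, read 7.33 and 6.58 against 13.14 and 12.94 (67.8-fold; adjusted p = 0.00277), and its second probe set gave a difference of 5.65. On the brightest probe set of each gene both testis arrays were far above both ovary arrays. The ovary readings lay above the background level of 4.77, which by itself does not show expression: the Sry probe set read 7.49 and 7.57 in ovaries. Cst9, a testis cystatin, read 6.10 and 6.46 against 12.69 and 12.56, an 81.4-fold difference (6.35 ± 0.52 (SE); adjusted p = 0.00852). Defb19, a defensin of Sertoli cells, was already bright in ovaries at 8.28 and 7.99 and reached 12.38 and 12.31 in testes (18.4-fold; adjusted p = 0.00191).

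Cbln4, a secreted cerebellin, read 3.73 and 3.74 in the ovaries, under background, and 9.72 and 9.90 in the testes, at least 32.8-fold (adjusted p = 0.00103). Its relative Cbln1 read above background in both organs, at 8.65 and 7.83 in ovaries and 13.12 and 13.01 in testes, 28.3-fold higher in testes (limma, adjusted p = 0.00852). Gdnf, the growth factor that later maintains spermatogonial stem cells, read 4.76 and 4.72 in ovaries, under background, and 7.36 and 7.33 in testes, at least 5.94-fold (adjusted p = 0.00254). The calcium-binding protein gene Tesc (difference 3.46) and the protease gene Ctrb1 (2.40) were the other called members, apart from Cyp26b1, described with the germ cells.

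The regulators of the Sertoli fate gave mixed readings. Sox9, the transcription factor that carries the signal of Sry, read 8.07 and 8.41 in the ovaries and 11.41 and 11.37 in the testes, an 8.86-fold difference (3.15 ± 0.37 (SE)). It was called at 5% (adjusted p = 0.0263) and at 1% in the 4-array fit (adjusted p = 0.0097). Its 2 other, dimmer probe sets differed by 0.86 and 0.21 and were not called. Of the related SOX factors, Sox10 was called at 5% (1.87; adjusted p = 0.0218), and Sox8 differed by 1.99 ± 0.50 (SE) with testis values of 7.36 and 6.34 that were far apart (adjusted p = 0.231).

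Dmrt1, a sex-determining factor made by supporting cells and germ cells, was level: 8.67 and 8.61 in ovaries, 8.65 and 8.62 in testes, a difference of -0.00 ± 0.29 (SE). Amh, the hormone that removes the Müllerian duct, gave only a small difference on its probe set, 6.24 and 6.33 against 7.0 and 6.90 (0.67 ± 0.17 (SE); adjusted p = 0.231), and in the sorted cells the difference was 2.77 (adjusted p = 0.00135). Wt1, Gata4 and Nr5a1, factors of the early gonad in both sexes, differed by -0.27, 0.23 and -0.07 and were not called.

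Hsd17b3, the enzyme that turns androstenedione into testosterone and in the fetal testis a Sertoli cell gene, had the largest difference among list members that were not called. It read 3.84 and 4.02 in the ovaries, under background, and 11.47 and 11.00 in the testes, at least 88.5-fold, with an adjusted p of 0.0523 over 8 arrays and of 0.00421 over the 4 gonad arrays. The sorted pre-granulosa arrays, which enter only the spread, read 3.93 and 7.58 for it. Col9a3, a collagen chain, also came just short, at 6.29 and 4.38 and 11.27 and 11.64 (adjusted p = 0.0127). A second Col9a3 probe set was called (difference 3.20; adjusted p = 0.00296).

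**Figure D2:**
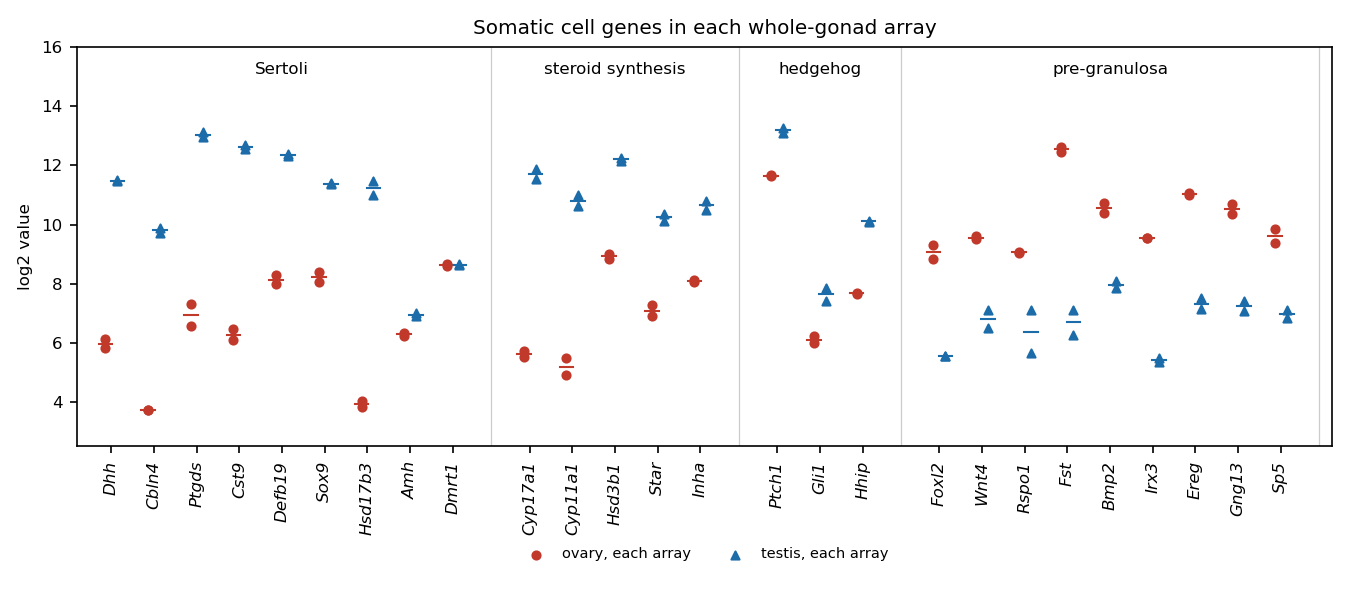
Log2 value of somatic cell genes in each ovary (red circles) and testis (blue triangles) array, with a short line at each mean of 2 arrays. The Sertoli and steroid genes lie higher in the testis arrays except Dmrt1, which is level, and Amh, which differs little; the pre-granulosa genes lie higher in the ovary arrays, while Rspo1 and Fst vary between the testis arrays.

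Enzyme genes of steroid synthesis were also called higher in testes. Of 13 measured genes of the fetal Leydig and steroid synthesis list, 3 were called higher in testes, 4 at 5% and 7 in the 4-array fit at 5%. Over all genes these shares were 0.236%, 0.676% and 1.62%. In the list 0 were higher in ovaries, and the median difference was 1.77. Cyp17a1, the enzyme that opens the route to androgens, read 5.52 and 5.74 in the ovaries and 11.87 and 11.53 in the testes, a 67.4-fold difference (6.07 ± 0.47 (SE); adjusted p = 0.0074). Cyp11a1, which cuts the cholesterol side chain in the first step, read 4.92 and 5.48 against 10.99 and 10.63 (48.9-fold; adjusted p = 0.00857); its 2 other probe sets differed by -0.12 and 0.11. Hsd3b1, the next enzyme, was already readily measured in ovaries at 9.01 and 8.84 and reached 12.26 and 12.15 (9.69-fold; adjusted p = 0.00412).

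Genes that supply these enzymes with cholesterol and electrons had smaller differences. Star, which carries cholesterol into mitochondria, read 7.27 and 6.89 in ovaries and 10.36 and 10.13 in testes (8.97-fold). It missed 5% over 8 arrays (adjusted p = 0.079) and passed it over the 4 gonad arrays (adjusted p = 0.0123), and its 2 other probe sets differed by 2.87 and 2.68. The electron carrier gene Fdx1 differed by 1.77 and the lipoprotein receptor gene Scarb1 by 1.08, neither called. Mc2r, the corticotropin receptor gene, was higher in testes at 5%, 5.41 and 5.07 against 7.26 and 7.22 (adjusted p = 0.0133). It was the only one of 12 measured adrenal genes that was: the adrenal enzyme genes Cyp21a1 and Cyp11b1 differed by 0.03 and 0.23, and Cyp11b1 was at background in both organs. The summed log2 level of the adrenal list was 75.75 and 75.18 in ovaries and 77.53 and 76.70 in testes. Insl3, Lhcgr and Ren1 were not measured here with a single-symbol probe set.

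In the sorted cells Cyp17a1 differed by 3.41 (adjusted p = 0.0136) and Cyp11a1 by 2.7 (adjusted p = 0.0286), higher in the Sertoli fraction. Those differences were smaller in value than the organ differences, but the difference between them was not called for either gene (adjusted p = 0.198 and 0.17).

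Of the hedgehog genes, Ptch1 and Gli1 were higher in testes at 5%. Ptch1, the receptor gene that the pathway itself induces, read 11.66 and 11.62 in ovaries and 13.25 and 13.11 in testes (2.9-fold; adjusted p = 0.0107), while its 2 dimmer probe sets differed by 0.56 and -0.10 and were not called. Gli1, the induced transcription factor, read 5.98 and 6.24 against 7.43 and 7.85 (2.88-fold; adjusted p = 0.0384). These 2 of the 12 measured hedgehog genes were higher at 5%, beside 0.676% of all genes. At 1% 0 were called, and the median of the list was 0.05. Hhip, the third induced gene, differed by 2.43 ± 1.09 (SE) and was called only in the 4-array fit at 1% (adjusted p = 0.0097). Its Sertoli arrays read 3.34 and 7.14, and a dimmer Hhip probe set was called over 8 arrays (difference 2.96; adjusted p = 0.00413).

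Genes of other interstitial and wall cells were rarely called. Of 19 measured interstitial and stromal genes 0 were called by limma, also at 5%, with 5 higher in testes and 1 in ovaries at an unadjusted p under 0.05. Over all 18193 genes, 979 were higher in testes and 1111 in ovaries at that unadjusted level, which applies to the lists below as well. In the 4-array fit at 5% 1, Tcf21, was higher in testes. Both testis values lay above both ovary values in 13 of the 19, beside 24.4% of all genes, and the median was 0.41. The largest differences were those of the chemokine gene Cxcl12 (8.33 and 9.05 in ovaries, 10.38 and 10.32 in testes; adjusted p = 0.0919) and the stromal transcription factor gene Tcf21 (difference 1.42; adjusted p = 0.196; 4 gonad arrays 0.0337). Among 11 peritubular and smooth muscle genes, with 0 called by limma at 5% and 3 higher in testes and 2 in ovaries at an unadjusted p under 0.05, the actin gene Acta2 was the highest at 8.47 and 9.04 and 10.65 and 10.55 (adjusted p = 0.268; 4 gonad arrays 0.0442), while the list's median was -0.20. Of 24 endothelial genes 0 were called by limma at 5%, with 1 higher in testes and 2 in ovaries at an unadjusted p under 0.05, and in the 4-array fit 1, the vascular transcription factor gene Sox7, passed 5%. Sox7 had the largest difference of the list, 8.05 and 7.59 in ovaries and 9.48 and 9.35 in testes (adjusted p = 0.0753; 4 gonad arrays 0.0443), and Plvap, of fenestrated vessels, the largest in the other direction (-0.92; adjusted p = 0.197). Cdh5, the cadherin of all vessels, differed by 0.17 ± 0.30 (SE). Pecam1, another pan-endothelial gene, differed by -0.04 ± 0.25 (SE). The arterial list held 1 of 13 genes higher at 5%, the Notch target gene Hey2, at 6.62 and 6.20 in ovaries and 7.99 and 8.31 in testes (adjusted p = 0.024). Of 21 basement membrane genes 0 were called by limma at 5%, with 6 higher in testes and 3 in ovaries at an unadjusted p under 0.05. The 4-array fit at 5% called 1, Col18a1 (difference 1.28). Col4a4 differed by 2.98 ± 0.71 (SE) with ovary values of 6.73 and 4.92, and Col4a6 by -1.54 ± 0.26 (SE).

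Ackr3, a decoy receptor for the product of Cxcl12, was called on its own: 5.82 and 5.92 in ovaries and 8.31 and 8.35 in testes (5.5-fold; adjusted p = 0.00412). Oxtr, the oxytocin receptor gene, was higher in testes at 5%, 6.04 and 6.42 against 10.76 and 10.18 (adjusted p = 0.012).

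Some genes of pre-granulosa cells were called higher in ovaries. Of 32 measured, 4 were called higher in ovaries and 7 at 5%, 14 in the 4-array fit at 5%, and 0 higher in testes at any of these levels. Over all genes the ovarian shares were 0.115%, 0.473% and 1.36%. The median difference of the list was -0.93. At an unadjusted p under 0.05 in limma, 17 were higher in ovaries and 2 in testes, beside 1111 and 979 of all 18193 genes. Foxl2, the transcription factor that keeps granulosa identity, read 9.31 and 8.84 in the ovaries and 5.54 and 5.57 in the testes, 11.5-fold higher in ovaries (-3.52 ± 0.27 (SE); adjusted p = 0.00741). The transcript on its opposite strand, Foxl2os, read 9.56 and 10.14 against 4.92 and 4.67 (adjusted p = 0.0168). Ereg, a ligand of the EGF receptor family, read 11.07 and 11.00 against 7.13 and 7.53 (13-fold; adjusted p = 0.00412). Gng13, a G protein subunit, read 10.70 and 10.36 against 7.42 and 7.06 (9.8-fold; adjusted p = 0.00413). Dimmer second probe sets of Foxl2 and Gng13 differed by -0.60 and -0.27 and were not called. None of these genes fell to background in the testis except 1 of the Foxl2os values, 4.67. The homeobox gene Irx3 read 9.56 and 9.54 against 5.50 and 5.35 (17.4-fold) and passed only in the 4-array fit (adjusted p = 0.0573 over 8 arrays and 0.00421 over 4).

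The Wnt branch contributed a called target and ligands at 5%. Sp5, a transcription factor induced by Wnt signals, read 9.83 and 9.38 in ovaries and 6.84 and 7.11 in testes (6.19-fold; adjusted p = 0.00842). The ligand gene Wnt4, needed for the ovary, read 9.50 and 9.62 against 6.50 and 7.12 (6.7-fold; adjusted p = 0.0409), and Wnt9a read 9.87 and 9.77 against 7.15 and 6.92 (6.88-fold; adjusted p = 0.0194). Rspo1, which amplifies Wnt signals, was steady in ovaries at 9.07 and 9.05 but differed between the testis arrays, 5.66 and 7.10, and its difference of -2.68 ± 0.57 (SE) was not called (adjusted p = 0.152; 4 gonad arrays 0.0856). Of the 32 genes of the whole Wnt list 1 was called and 3 at 5%, all higher in ovaries, beside 0.115% and 0.473% of all genes. The median of the list was -0.09, and the feedback gene Axin2 differed by -0.88 ± 0.52 (SE).

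Of 32 measured activin, inhibin, BMP and Nodal genes 1 was called, Lefty2, and 4 at 5%, all higher in testes. Over all genes these shares were 0.236% and 0.676%. In the 4-array fit at 5%, 6 were higher in testes and 3 in ovaries, beside 1.62% and 1.36% of all genes. The median of the list was 0.27. Follistatin (Fst), the binder of activin, read 12.44 and 12.63 in ovaries and 7.12 and 6.26 in testes, a 57.6-fold difference. Over 8 arrays its adjusted p was 0.0735, over the 4 gonad arrays 0.0113, and a dimmer Fst probe set was called (difference -2.99; adjusted p = 0.00857). The ligand gene Bmp2 also passed 5% in the 4-array fit only: 10.72 and 10.38 against 8.08 and 7.84 (6.01-fold; adjusted p = 0.14 over 8 arrays and 0.0152 over 4). On the testis side, the inhibin alpha subunit gene Inha read 8.07 and 8.13 in ovaries and 10.81 and 10.49 in testes (5.85-fold; adjusted p = 0.0133). The activin subunit gene Inhbb differed by 1.30 ± 0.20 (SE) (adjusted p = 0.0655). Amhr2, the receptor gene for Amh, was on the ovarian side, 10.95 and 10.89 against 9.47 and 9.52 (adjusted p = 0.106; 4 gonad arrays 0.0221). In the 4-array fit the receptor gene Acvr1c, higher in testes, also passed 5% (difference 1.86; adjusted p = 0.045; 8 arrays 0.107).

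Other genes called higher in ovaries are known from other tissues. Calb1, a calcium-binding protein, read 10.12 and 10.14 in the ovaries and 5.38 and 5.41 in the testes, a 26.6-fold difference (-4.73 ± 0.15 (SE); adjusted p = 0.000699). Its 3 other, dimmer probe sets differed by -0.18, -1.70 and -0.47 and were not called. Adm, the vessel-relaxing peptide adrenomedullin, was among the brightest called genes at 12.31 and 12.52 in ovaries against 8.81 and 9.56 (9.38-fold; adjusted p = 0.00842). Insyn2b and Egfl6, a secreted EGF-like protein, reached 8.02 and 7.70 and 8.11 and 7.48 in ovaries and were under background in testes, at least 8.48-fold and 8.12-fold higher. Jakmip1 (difference -3.05), Cfap161 (-2.67) and the potassium channel partner gene Kcnip4 (-2.65) were also called. Dimmer probe sets of Jakmip1 differed by -0.19, -0.88 and -0.43, those of Kcnip4 by -0.59 and -0.42, and that of Adm by -2.67. None of these dimmer probe sets was called.

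Promoter windows were read for 2 motifs because the factors that bind them act in these cells: CAAGGTCA, bound by the steroidogenic factor Nr5a1, and AACAAT, bound by SOX proteins, each on both strands. Windows ran from 250 bases before to 50 after the start of a gene (RefSeq, GRCm38.p6) and were at hand for 31 of the 43 genes called higher in testes, 16 of the 21 called higher in ovaries, 20 of 35 Sertoli genes and 7 of 13 steroid genes. Cyp17a1, Star, Amh and Sox9 were among the genes without a window. The Nr5a1 letters were found in 0 of the 31, 0 of the 20, 0 of the 7 and 1 of the 16, beside 1.58% of 14452 genes on the array. With so low a share and so few windows, the lack of a match does not show that these promoters lack Nr5a1 sites. The SOX letters were found in 2 of the 31 (6.45%), 2 of the 20 (10%), 0 of the 7 and 1 of the 16 (6.25%), beside 8.64%. No called gene with a match held both motifs. Below are the 250 bases before the start of the called Sertoli gene with a SOX match, Cbln4 (chr2:172043467-172043716, minus strand), and of the called ovarian gene with an Nr5a1 match, Prcd (chr11:116656858-116657107, plus strand), shown 5′ to 3′ on the gene's strand with the matching letters, in either orientation, in capitals.
Cbln4: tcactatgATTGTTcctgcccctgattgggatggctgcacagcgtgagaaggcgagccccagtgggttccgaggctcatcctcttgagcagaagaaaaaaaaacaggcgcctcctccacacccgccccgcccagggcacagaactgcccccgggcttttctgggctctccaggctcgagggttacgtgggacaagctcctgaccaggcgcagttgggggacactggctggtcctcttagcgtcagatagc
Prcd: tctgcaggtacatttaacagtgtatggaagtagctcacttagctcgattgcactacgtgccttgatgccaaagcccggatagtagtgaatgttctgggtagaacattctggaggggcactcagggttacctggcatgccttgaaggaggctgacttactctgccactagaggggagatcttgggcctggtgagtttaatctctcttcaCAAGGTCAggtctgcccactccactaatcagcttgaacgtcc
The Cbln4 match begins 242 bases and the Prcd match 42 bases before the start. Prcd, named for a photoreceptor disorder, read 9.66 and 9.78 in ovaries and 7.56 and 7.75 in testes (adjusted p = 0.00842). A match is a run of letters and not a site shown to be bound.

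Genes that germ cells of both sexes share were measured in both organs and were not called. Of 28 general germ cell genes 0 were called by limma, also at 5%, and the 4-array fit called 1 at 5%, Tfap2c. At an unadjusted p under 0.05, 5 were higher in ovaries, beside 1111 of all 18193 genes. The median was -0.24, with both ovary values above both testis values in 15, beside 30.7% of all genes. The helicase gene Ddx4 read 10.89 and 10.85 in ovaries and 10.66 and 10.62 in testes, a difference of -0.23 ± 0.42 (SE). The pluripotency factor gene Pou5f1 read 10.45 and 10.56 against 9.76 and 9.79 (-0.73 ± 0.33 (SE); adjusted p = 0.595). Tfap2c, a factor of primordial germ cells, read 12.06 and 12.07 against 10.89 and 10.81 (4 gonad arrays, adjusted p = 0.0277), and Dazl, a germ cell RNA-binding protein, differed by 0.08 ± 0.21 (SE).

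Of the meiotic prophase list, Rec8 was called higher in ovaries and Stra8 at 5%. Rec8, the meiotic cohesin, read 9.82 and 9.98 in ovaries and 5.73 and 6.03 in testes, a 16.2-fold difference (-4.02 ± 0.29 (SE); adjusted p = 0.0059). Stra8, the retinoic acid-induced gene that starts meiosis, read 8.27 and 7.51 against 5.42 and 5.58 (5.26-fold) and was called at 5% (adjusted p = 0.0249). Meioc, which stabilises the meiotic programme, read 10.17 and 9.80 against 7.98 and 7.65 (4.49-fold; adjusted p = 0.176; 4 gonad arrays 0.0278), and the cohesin gene Smc1b differed by -1.49 ± 0.28 (SE) (4 gonad arrays, adjusted p = 0.0478). Meioc and Smc1b passed 5% in the 4-array fit only. For these 4 genes both ovary values lay above both testis values.

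Of the 37 measured genes of meiotic prophase 1 was called and 2 at 5%, all higher in ovaries. At an unadjusted p under 0.05 in limma, 14 were higher in ovaries and 1 in testes, beside 1111 and 979 of all 18193 genes. In 20 both ovary values were higher, beside 30.7% of all genes, and the median was -0.22. The axis gene Sycp3 differed by -0.66 ± 0.26 (SE), the break-forming Spo11 by -0.79 ± 0.30 (SE) and the recombinase gene Dmc1 by 0.47 ± 0.17 (SE), none called. Of 14 oocyte genes limma called 0 at 1%, at 5% and in the 4-array fit, and 1 was higher in ovaries at an unadjusted p under 0.05. Their median was -0.09; Ybx2 had the largest difference (7.50 and 6.71 in ovaries, 6.14 and 6.17 in testes; adjusted p = 0.286).

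Rec8 differed in sorted cells too, by -3.56 (adjusted p = 0.00282), with pre-granulosa readings of 11.29 and 10.42. Sycp3, not called between the organs, was called in sorted cells (-2.31; limma, adjusted p = 0.00739), with pre-granulosa readings of 8.18 and 7.47. Stra8 differed there by -0.01: it read 5.11 and 5.46 in sorted pre-granulosa and 5.18 and 5.37 in sorted Sertoli cells.

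Retinoic acid genes differed at 2 enzymes. Cyp26b1, which degrades retinoic acid, read 5.59 and 5.54 in ovaries and 9.36 and 8.97 in testes, a 12.1-fold difference (3.60 ± 0.29 (SE); adjusted p = 0.00852). Aldh1a1, which makes retinoic acid, was bright in both and higher in testes at 5%, 11.88 and 11.71 against 13.05 and 13.01 (2.35-fold; adjusted p = 0.0246). Aldh1a2, the synthesis enzyme of the mesonephros, differed by -0.12 ± 0.23 (SE). These were the 2 of 18 measured retinoic acid genes higher in testes at 5%, beside 0.676% of all genes. At 1%, 1 was called, beside 0.236% of all genes, and 0 were higher in ovaries at either level. The list's median was -0.37, with both ovary values higher in 10 members, beside 30.7% of all genes. Among the 10 was the binding protein gene Crabp1 (difference -1.41; 4 gonad arrays, adjusted p = 0.0497).

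Of the XY germ cell list, Lefty2 was called higher in testes, and Lefty1 and Tdgf1 at 5%. Lefty2, the feedback inhibitor of Nodal, read 5.56 and 5.49 in ovaries and 9.22 on both arrays in testes, a 12.9-fold difference (3.69 ± 0.23 (SE); adjusted p = 0.00373). Lefty1 read 4.90 and 4.63 against 6.82 and 6.44 (3.64-fold; adjusted p = 0.0307). The co-receptor gene Tdgf1 read 4.20 on both arrays in ovaries, under background, and 5.54 and 5.77 in testes, at least 1.84-fold (adjusted p = 0.0392). Nodal itself read 7.53 and 6.80 against 8.47 and 8.31 and was not called (1.22 ± 0.26 (SE); adjusted p = 0.15; 4 gonad arrays 0.116).

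Later genes of the male germ line were not among them. Dnmt3l, the DNA methylation cofactor, was under background in both organs, 3.98 and 4.09 and 4.25 and 3.95, and Piwil4 differed by -0.75 ± 0.52 (SE). The cell cycle inhibitor gene Cdkn1a, also on this list, was higher in ovaries at 5%, 9.39 and 9.09 against 7.32 and 7.61 (adjusted p = 0.0218), and its relative Cdkn1c in the 4-array fit (difference -1.91; adjusted p = 0.0244). Of the 14 measured XY germ cell genes 1 was called higher in testes and 3 at 5%, against 1 higher in ovaries at 5%. Over all genes these shares were 0.236%, 0.676% and 0.473%. The median of the list was 0.06. Nanos2 was not measured here with a single-symbol probe set.

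**Figure D3:**
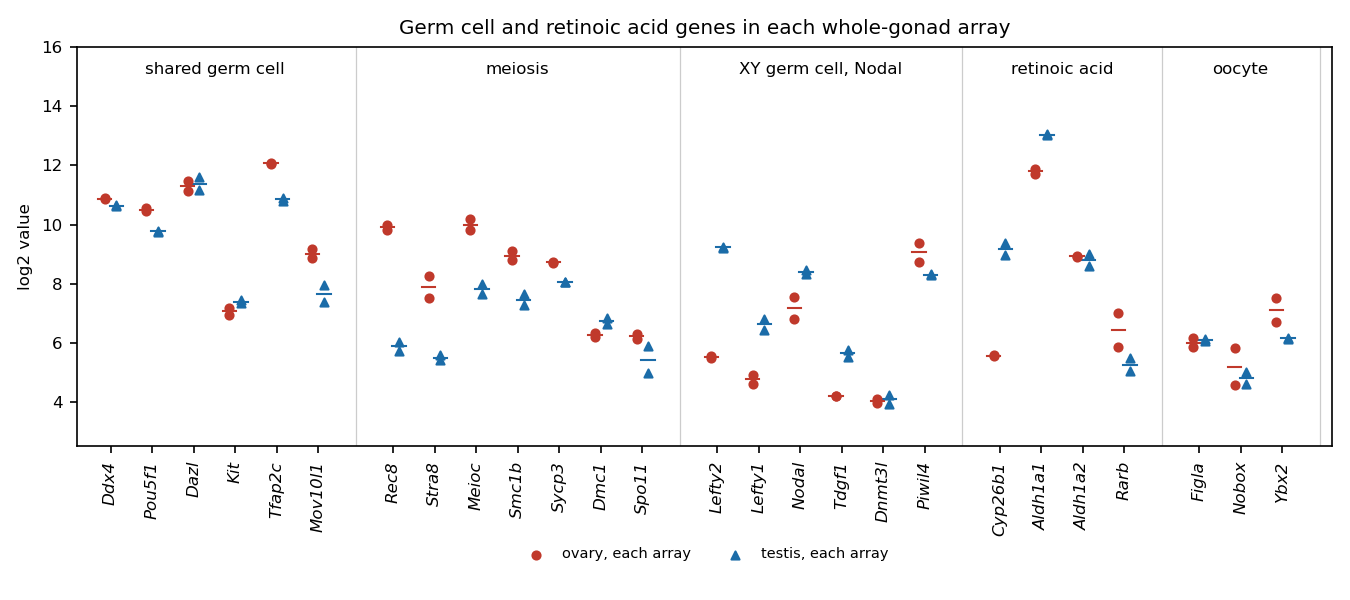
Log2 value of germ cell, meiosis, Nodal, retinoic acid and oocyte genes in each ovary (red circles) and testis (blue triangles) array, with a short line at each mean of 2 arrays. Rec8, Stra8 and Meioc are higher in both ovary arrays, Lefty2, Lefty1, Tdgf1 and Cyp26b1 in both testis arrays, and Ddx4, Dazl, Dmc1 and Dnmt3l lie close together.

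Genes of cell division were not called. Of 17 genes of the G2 and M phases limma called 0 at 5%. At an unadjusted p under 0.05, 2 were higher in testes, beside 979 of all 18193 genes. In 12 both testis values were higher, beside 24.4% of all genes, and the median was 0.36. Aurkb, a mitotic kinase, had the largest difference (0.98 ± 0.20 (SE); adjusted p = 0.135). Of 19 S phase genes limma called 0 at 5%, and 0 had an unadjusted p under 0.05, with a median of 0.02. Mki67, the general marker of cycling cells, read 11.36 and 11.64 in ovaries and 11.46 and 11.70 in testes. Of the 16 prostaglandin genes only Ptgds was called.

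Markers of neighbouring and circulating cells were checked because the samples are whole organs. Of 16 mesonephros and duct epithelium genes limma called 0 at 5%, with 6 higher in ovaries and 1 in testes at an unadjusted p under 0.05. Over all 18193 genes these counts were 1111 and 979. In the 4-array fit at 5%, 5 were higher in ovaries, among them the keratin genes Krt18 (-1.72) and Krt8 (-1.53) and the kidney and duct factor gene Pax8 (-1.06). These genes are not confined to ducts: Krt18 read 11.68 and 11.07 in sorted pre-granulosa and 10.08 and 10.48 in sorted Sertoli cells. Pax8 read 6.22 and 6.08 in sorted pre-granulosa and 4.62 and 5.49 in sorted Sertoli cells. The summed log2 level of that list was 127.13 and 125.70 in ovaries and 115.08 and 115.74 in testes; the part of duct tissue in the ovarian genes was not tested. Ret, the receptor for Gdnf, led this list at 10.10 and 10.11 in ovaries and 5.68 and 5.96 in testes, a 19.6-fold difference with an adjusted p of 0.00543 over the 4 gonad arrays and 0.329 over all 8. Its sorted arrays read 9.13 and 11.08 in pre-granulosa and 3.97 and 8.04 in Sertoli cells.

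Of 13 genes of the coelomic surface epithelium 2 were higher in ovaries at 5%, Lgals7 (-1.59) and the mucin gene Muc16 (-1.24), with summed levels of 105.67 and 104.56 in ovaries and 102.56 and 103.03 in testes. Blood cell lists held 0 genes called by limma at 5%, and at an unadjusted p under 0.05 1 macrophage gene, higher in ovaries, and 0 erythroid genes. At that unadjusted level 1111 of all 18193 genes were higher in ovaries and 979 in testes. In the 4-array fit at 5% 1 macrophage gene, Csf1r, was higher in ovaries. The 19 macrophage genes had a median of -0.21 and summed levels of 124.20 and 129.75 in ovaries and 119.34 and 123.32 in testes, with the receptor gene Csf1r the furthest apart (-1.48; adjusted p = 0.889; 4 gonad arrays 0.0479). The 13 erythroid genes had a median of -0.13, and the embryonic globin gene Hbb-y read 13.70 and 13.64 in ovaries and 13.63 and 13.74 in testes.

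Cdx2, a homeobox gene known from the hindgut and the trophoblast, was higher in ovaries by 18.1-fold, 10.54 and 10.18 against 5.88 and 6.49 (-4.18 ± 0.25 (SE); adjusted p = 0.00327). Its other probe set read 4.64 and 4.82 in ovaries and 4.54 and 4.55 in testes and was not called. It was the only one of 19 Cdx and posterior Hox genes called at 1% or 5%; the list's median was -0.02, and Hoxa9, next in size, differed by -1.64 ± 0.65 (SE) with testis values of 6.78 and 8.84. Rhox6 and Rhox9, X-linked homeobox genes of the germ line, were higher in ovaries: Rhox6 at 9.78 and 9.95 against 7.79 and 7.50 (adjusted p = 0.00583), Rhox9 at 10.70 and 10.58 against 8.02 and 7.97 (adjusted p = 0.0107).

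**Figure D4:**
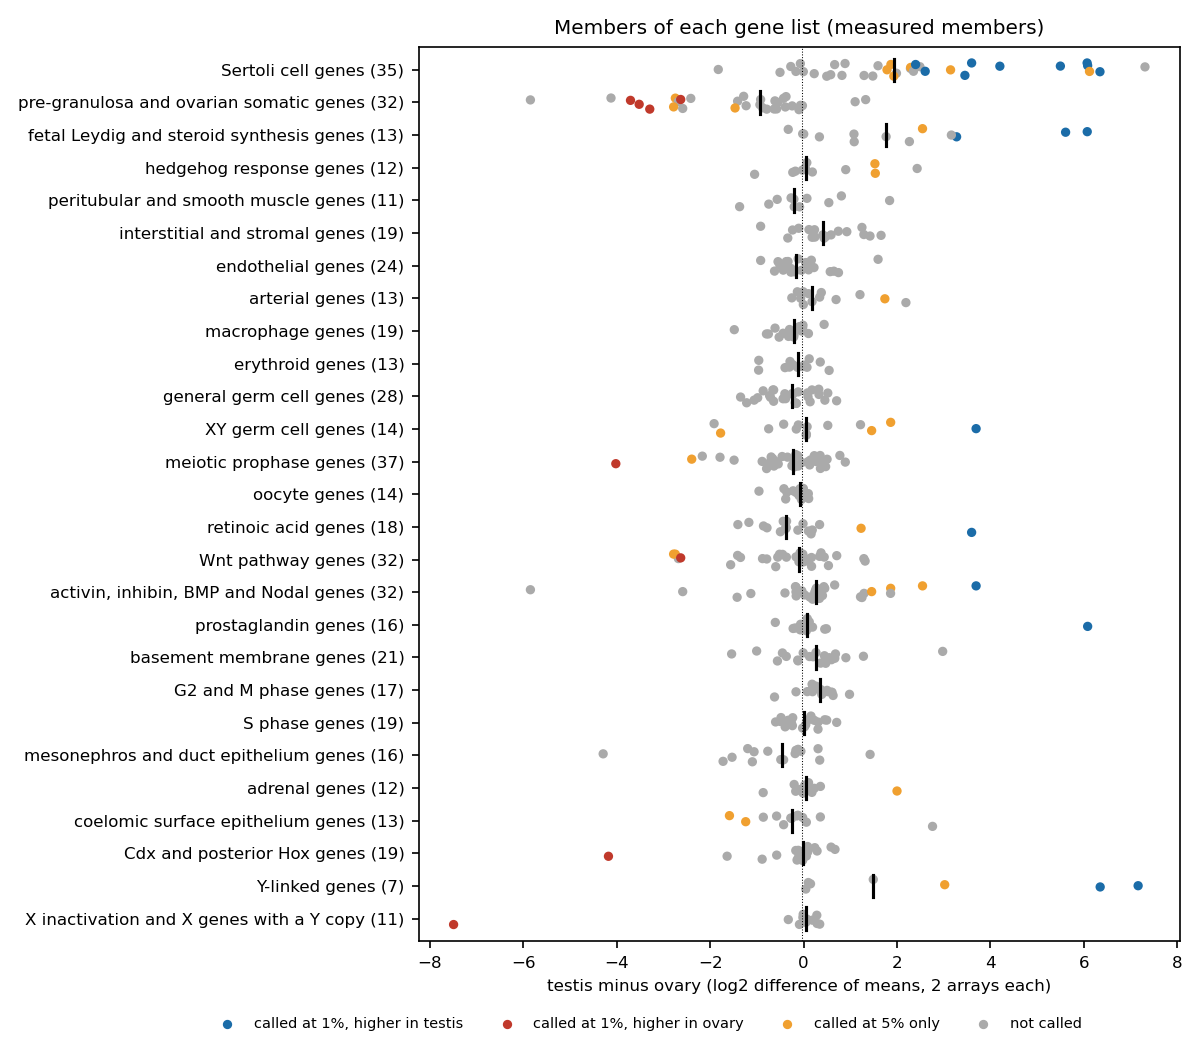
Testis minus ovary log2 difference of every measured member of the 27 gene lists, with the number measured in brackets, a black bar at each list's median, a dotted line at the median of all genes (-0.04), and colour for the level at which a member was called. The Sertoli, steroid and Y-linked lists lie to the right, the pre-granulosa list to the left, and most other lists centre near 0 with single members far out.

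Of the 64 genes called between the organs, 38 were also called between sorted Sertoli and pre-granulosa cells, all in the same direction, 23 of the 43 testis genes (53.5%) and 15 of the 21 ovarian genes (71.4%). The sorted comparison called 485 genes (2.67%) at 1% and shares no sample with the organ comparison, although both entered 1 fit. Dhh differed by 5.50 in organs and 6.49 in sorted cells, Foxl2 by -3.52 and -4.01, and Calb1 by -4.73 and -4.64. Ereg reached -6.29 in sorted cells beside -3.70 in organs.

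For 17 of the 64 genes, 11 of the testis and 6 of the ovary, the sorted difference was under 1 log2 unit. The difference between the 2 comparisons passed 5% in limma for 62 genes in all (0.341%) and 1% for 0, with 2367 at an unadjusted p under 0.05, and 15 of those 62 were among the 64. The 10 testis genes of these 15 were Pmaip1, Mal, Rerg, Prokr2, Lefty2, Chsy3, Ackr3, Saa1, Kcns2 and Btn1a1, and the 5 ovarian genes were Cdx2, Calcoco2, Edar, Phlda2 and Rhox6.

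Pmaip1, a pro-apoptotic BH3-only protein, read 3.89 and 3.76 in ovaries, under background, and 7.87 and 7.54 in testes, at least 7.62-fold (adjusted p = 0.00178), with 3.43 and 3.29 in sorted pre-granulosa and 3.36 and 3.18 in sorted Sertoli cells. Mal, a membrane raft protein, read 4.49 and 4.65 against 8.32 and 8.34, at least 11.8-fold (adjusted p = 0.00103), and differed by 0.06 in sorted cells; its second probe set differed by 0.88 between the organs and was not called. Rerg, a small GTPase, read 4.32 and 4.37 against 8.85 and 8.55, at least 15.2-fold (adjusted p = 0.00191), and differed by 1.03 in sorted cells (adjusted p = 0.0506). Prokr2, a prokineticin receptor, read 4.71 and 4.90 against 8.73 and 8.57 (14.3-fold; adjusted p = 0.00178), and differed by 0.58 in sorted cells. In each of these genes the ovary was at or near background, and both testis arrays were well above it.

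On the ovarian side, Calcoco2, an autophagy receptor, read 7.54 and 7.66 in ovaries and 4.97 and 4.74 in testes (6.72-fold; adjusted p = 0.00296). Edar, the ectodysplasin receptor, read 7.77 and 8.27 against 5.56 and 5.43 (5.76-fold; adjusted p = 0.00842), and Phlda2, an imprinted gene, 8.79 and 8.94 against 6.41 and 6.59 (5.15-fold; adjusted p = 0.00412). The sorted differences of these genes were -0.13, -0.03 and 0.13, and that of Cdx2 was -0.26.

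**Figure D5:**
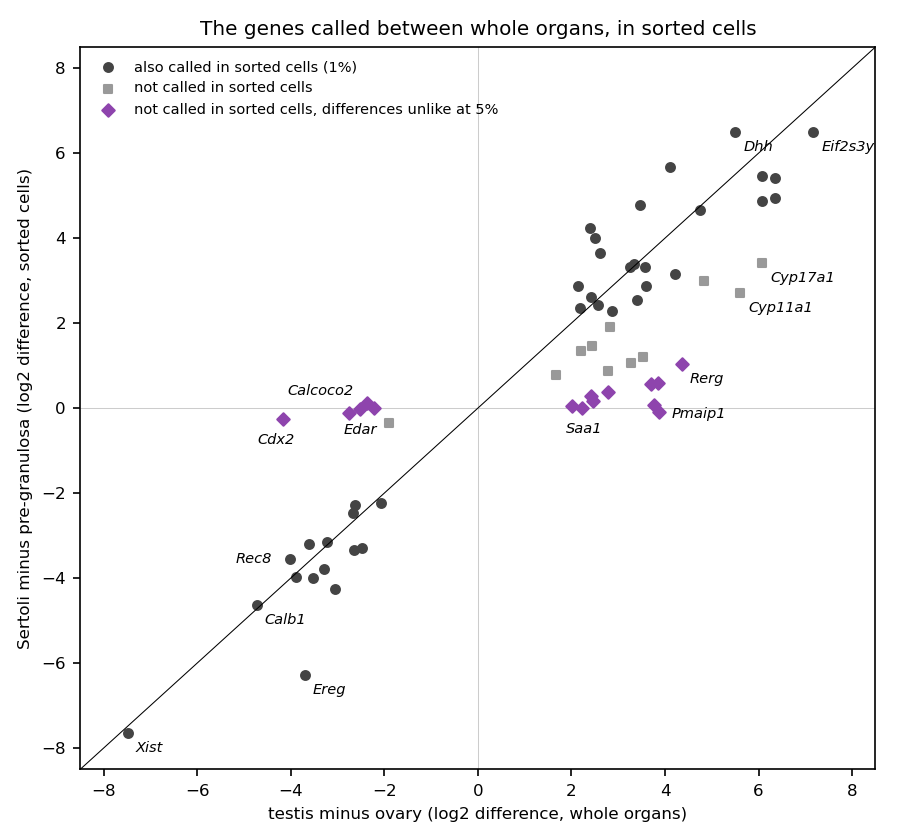
Testis minus ovary difference in whole organs (horizontal) and Sertoli minus pre-granulosa difference in sorted cells (vertical), both in log2 units, of the 64 genes called between organs, with the line of equality. Genes also called in sorted cells (38, dark circles) lie along the line, and the 15 whose differences were unlike at 5% (purple diamonds) lie nearer 0 on the vertical axis than on the horizontal one, the furthest from 0 being Rerg at 1.03. All 64 were chosen on the horizontal axis, which favours larger values there.

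The remaining called testis genes spanned differences from 1.68 to 4.75. Gjb2, a gap junction connexin, was the largest at 6.48 and 6.13 in ovaries and 11.39 and 10.71 in testes (26.8-fold; adjusted p = 0.00373). Ankrd63 read 4.79 and 5.73 against 9.30 and 9.45 (17.3-fold; adjusted p = 0.00786). Genes of adhesion and of the cell surface were the protocadherin gene Pcdh8 (3.41), the integrin genes Itga4 (2.17) and Itgb8 (2.57) and the metalloprotease gene Adam12 (2.14). The serotonin transporter gene Slc6a4 (2.87) and the aldo-keto reductase gene Akr1cl (1.68) were also called, the latter with bright readings in both organs, 10.77 and 10.74 and 12.49 and 12.37. On the ovarian side these were the acyltransferase gene Gpat3 (-2.48) and the embryonic myosin gene Myh3 (-1.91).

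Of the 64 called genes 32 had further single-symbol probe sets, 49 in all. Of those 47 differed in the same direction as the chosen probe set, 8 were themselves called and 2 differed in the opposite direction, by values that were not called.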

How the data were processed

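RNA of whole testes and whole ovaries of embryonic day 13 mice, 4 pooled gonads a sample and 2 samples an organ, was read beside RNA of sorted cells, 8 arrays in all. Each array received about 2.5 µg of biotin-labelled cDNA made from about 20 ng of total RNA, per the labels. The authors deposited log2 values; the submitters' processing notes list RMA, without a version. Ranked values were nearly equal within the gonad arrays (largest difference 0.15) and within the sorted arrays (0.18) but differed between these sets (median 0.38). Separate normalization of the sets is therefore likely, though the labels do not mention it. Only differences within a set were compared.

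Of 45101 probe sets 64 were controls. Symbols came from the array annotation: 34945 probe sets had 1 symbol, 932 several and 9160 none. RefSeq (GRCm38.p6) matched 34741 by gene ID. A gene took its probe set with the highest mean over 8 arrays. Differences were fitted with limma 3.58.1 (R 4.3.3), 1 mean per group over 8 arrays, eBayes, two-sided p, Benjamini-Hochberg over 45037 probe sets, at 1%, the false discovery rate named in the series text. Residual degrees of freedom were 4. Gonad and sorted arrays share 1 estimate of the spread; the fit on 4 gonad arrays was an alternative. The procedure was tested on simulated data. The simulated arrays were independent, so that test could not show an effect of a shared litter or batch. SE is that of the model. Where both arrays of an organ read at or under 4.77, the fold is the bright organ's mean over that level, given as at least. A fold is otherwise the difference of the groups' mean log2 values, turned back to the linear scale. The number of arrays limits its precision.

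The members, the 27 lists (564 entries, 517 measured) and the rule for named genes were chosen with earlier results of these data known, so the lists are described by counts and medians with no test. The rule takes the 15 highest and 15 lowest called differences with groups that do not overlap, up to 4 called and 2 not called members of each list, and 48 identity genes (44 measured). Called genes and list members named outside it, and Foxl2os, Oxtr and Rhox9, were chosen after their values were seen. Alternatives were other normalizations, moderations, filters, thresholds and probe set choices, a replicate block and omission of each array.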

Additional observations from a re-analysis of the deposited data

Results flagged for a closer look

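For 15 of the 64 genes called between the organs, the sorted-cell difference (Sertoli minus pre-granulosa) differed from the organ difference (testis minus ovary) in a limma contrast of the 2 differences at an adjusted p of 5%; at 1% none passed. The values below are the sorted difference less the organ difference in log2 units. Among genes higher in the testis they were Pmaip1 -3.97 (SE 0.249; adjusted p = 0.0338), Mal -3.70 (SE 0.191; adjusted p = 0.0253), Rerg -3.32 (SE 0.306; adjusted p = 0.0345), Prokr2 -3.26 (SE 0.25; adjusted p = 0.0338) and Lefty2 -3.14 (SE 0.322; adjusted p = 0.0391). They were Chsy3 -2.40 (SE 0.261; adjusted p = 0.045), Ackr3 -2.29 (SE 0.225; adjusted p = 0.0376), Saa1 -2.23 (SE 0.236; adjusted p = 0.0428), Kcns2 -2.13 (SE 0.232; adjusted p = 0.045) and Btn1a1 -1.95 (SE 0.223; adjusted p = 0.0479) for the rest of that side. Among genes higher in the ovary they were Rhox6 2.23 (SE 0.228; adjusted p = 0.0391), Phlda2 2.49 (SE 0.213; adjusted p = 0.0345), Edar 2.50 (SE 0.291; adjusted p = 0.0479), Calcoco2 2.62 (SE 0.22; adjusted p = 0.0345) and Cdx2 3.92 (SE 0.349; adjusted p = 0.0345). In each of the 15 the whole-organ difference was the larger in size, but they were chosen among genes called on that difference, which favours this. Outside the 64, Amh also passed 5% in this limma contrast (adjusted p = 0.0479), with the sorted difference the larger, 2.77 beside 0.67 between organs. The sorted arrays varied more between replicates than the gonad arrays, and the spread was pooled over both.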

How the results depend on the processing

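Of the 64 called genes (43 higher in testes, 21 in ovaries), the 4 gonad arrays alone gave 53 calls, 30 of them among the 64, and trend with robust moderation 61 (52 shared). Quantile normalization within each set gave 63 (61 shared), over all arrays 47 (47 shared), and median centring 64 (63 shared). A filter that kept probe sets above a log2 value of 6 on at least 2 gonad arrays gave 81 (63 shared), and choosing probe sets by their mean over gonad arrays 66 (64 shared). A weight per group gave 257 calls, 144 higher in testes and 113 in ovaries, with all 64 among them. At 5%, 209 were called (123 and 86), and 62 for the difference between the organ and sorted comparisons, against 0 at 1% there. Without moderation limma called 0, with 1887 genes at an unadjusted p under 0.05. The leave-one-out counts ran from 0, without any 1 gonad array (0 higher in testes, 0 in ovaries), through 20 (15 and 5) without either Sertoli array, to 65 (44 and 21) without either pre-granulosa array. The lowest adjusted p without a gonad array was 0.0241 to 0.0355.

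Whether same-numbered arrays share a litter or batch is not given. Same-numbered ovary and testis arrays deviated from their group means with a correlation of 0.0146, and pre-granulosa and testis arrays with -0.156. With so few arrays a low correlation does not exclude a shared litter or batch. With the replicate block limma called 13 genes (9 higher in testes, 4 in ovaries), all among the 64. The 4 gonad arrays with the block, chosen after seeing the data, gave 0 (0 and 0), with 3889 genes at an unadjusted p under 0.05 and 1 residual degree of freedom.

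Of 107 genes chosen by the naming rule, only Cyp21a1 (-0.18 without ovary replicate 1, 0.24 without the other) and Pecam1 (0.27 without testis replicate 1, -0.36 without the other) changed sign by more than a standard error, and neither was called. The smallest difference called was 1.68, and 2851 genes (15.7%) were at or under background on all 4 gonad arrays.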

Other observations

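Genes outside the lists, chosen after their values were seen, added homeobox and secreted factors at 5%. Hesx1, a homeobox gene of the forebrain and pituitary, read 4.34 and 4.95 in ovaries and 7.68 and 6.83 in testes (difference 2.61 ± 0.32 (SE); limma, adjusted p = 0.0318). Otx2, a homeobox gene of the head, read 4.55 and 4.60, under background, and 6.36 and 5.94 (adjusted p = 0.041). Nts, the peptide neurotensin, read 5.13 and 6.37 against 9.06 and 8.82 (adjusted p = 0.0303), and Rassf5, a Ras-binding protein, 5.28 and 6.07 against 9.44 and 8.96 (adjusted p = 0.0258). In sorted cells these 4 genes differed by 0.00, 0.26, 0.29 and 0.50.

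Adh1, an alcohol dehydrogenase that also oxidises retinol, read 6.83 and 6.0 in ovaries and 10.40 and 10.10 in testes (14.2-fold; adjusted p = 0.041) and differed by 3.75 in sorted cells. Akr1d1, the steroid beta-reductase gene, was under background in ovaries, 3.58 and 3.61, and read 6.53 and 8.03 in testes, at least 5.68-fold (adjusted p = 0.0303). Gata2, a GATA factor, was higher in ovaries, 11.30 and 11.14 against 8.82 and 9.53 (adjusted p = 0.0318), and differed by -0.01 in sorted cells. For Akr1d1 the testis arrays were far apart, and over the 4 gonad arrays its adjusted p was 0.055.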
